A study of Mus musculus with 6 samples.

Results

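Hlf, Mecom, Prdm16, Fgd5, Mllt3, Ctnnal1, Eya1 and Nupr1 are genes known from work on long-term haematopoietic stem cells (HSCs), the marrow cells that can rebuild the whole blood system and keep doing so. They were taken by name from the deposited expression table. All 8 were among its 23955 gene symbols and all 8 were expressed enough to be tested. The samples came from the bone marrow of C57BL/6 mice at 4 months of age. HSCs were sorted by surface markers, as CD150+ CD48- LSK cells (without lineage markers, with Sca-1 and c-Kit), and 20000 cells went into a library. Libraries came from db/db mice, which carry a mutated leptin receptor and become obese, and from wild-type (WT) littermates. In each of 3 independent experiments 1 library of each genotype was made, giving n = 3 for each genotype. How many mice gave a library is not stated in the labels. The receptor mutation is carried by every cell of the animal, so obesity and the loss of leptin signalling in any one tissue cannot be told apart in this design.

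A long-term HSC divides rarely, and several of the genes described here mark such cells or are needed to maintain them. Hlf, the hepatic leukaemia factor, is a basic leucine zipper transcription factor of the PAR family, and reporter mice that read its expression mark HSCs. Mecom encodes the zinc-finger proteins EVI1 and MDS1-EVI1 from separate start sites, and its loss depletes long-term HSCs. Prdm16 is the closest relative of Mecom and is also needed to maintain HSCs. Mllt3 (AF9) reads acylated histones and recruits the histone methyltransferase Dot1l to transcribed genes. Eya1 is a transcriptional co-activator that also has phosphatase activity. Fgd5 is an exchange factor for the small GTPase Cdc42 and Ctnnal1 (alpha-catulin) is a relative of alpha-catenin, and reporters at both genes are used to find HSCs in mice. Nupr1 is a small stress-induced nuclear protein.

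Promoter sequences are shown for Hlf, the gene of highest level, and for Mecom and Fgd5, the pair whose values were most alike between libraries. For 7 of the 8 genes RefSeq promoters were matched by symbol on the GRCm38.p6 build, at 9 start sites. The expression values were made on the mm9 build, so the coordinates below locate the promoters on the later build only. Each line gives the 250 bases before a start, 5′ to 3′ on the strand of the gene, with matches to a searched motif in capitals. Mecom has a pair of starts in that annotation. The upstream one, at chr3:30509760-30510009 on the minus strand, begins the MDS1-EVI1 form, and the inner one, at chr3:30013205-30013454, begins EVI1. The table holds 1 value per gene, so RNAs from these starts cannot be told apart. The Hlf promoter lies at chr11:90390918-90391167 on the minus strand and that of Fgd5 at chr6:91978715-91978964 on the plus strand.
Hlf: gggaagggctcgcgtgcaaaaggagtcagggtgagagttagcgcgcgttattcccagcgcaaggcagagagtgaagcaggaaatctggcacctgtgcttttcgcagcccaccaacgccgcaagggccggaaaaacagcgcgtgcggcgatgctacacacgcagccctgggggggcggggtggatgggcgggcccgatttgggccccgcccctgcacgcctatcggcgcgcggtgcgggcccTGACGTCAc
Mecom, upstream start: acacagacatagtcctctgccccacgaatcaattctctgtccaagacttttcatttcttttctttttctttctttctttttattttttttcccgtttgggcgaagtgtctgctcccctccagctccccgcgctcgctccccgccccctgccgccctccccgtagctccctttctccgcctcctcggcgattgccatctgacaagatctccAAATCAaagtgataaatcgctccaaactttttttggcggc
Mecom, inner start: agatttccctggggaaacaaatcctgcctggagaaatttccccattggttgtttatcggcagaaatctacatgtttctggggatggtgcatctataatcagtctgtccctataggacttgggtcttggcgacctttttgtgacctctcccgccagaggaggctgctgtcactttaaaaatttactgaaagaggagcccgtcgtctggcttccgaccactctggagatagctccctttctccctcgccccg
Fgd5: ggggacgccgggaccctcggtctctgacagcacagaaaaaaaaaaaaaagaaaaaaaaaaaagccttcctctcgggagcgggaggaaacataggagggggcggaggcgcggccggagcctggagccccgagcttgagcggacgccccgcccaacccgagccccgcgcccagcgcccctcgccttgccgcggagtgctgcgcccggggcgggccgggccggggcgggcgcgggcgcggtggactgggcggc
The capitals in Hlf are the letters TGACGTCA, the cyclic-AMP response element, from 9 to 2 bases before the start. That motif was chosen after the sequence had been read, and 1.55% of 32851 RefSeq promoters of the same length hold it on either strand. In a check, the bases after this Hlf start were not found near the beginning of any reference transcript of the gene. The distance therefore refers to the RefSeq start alone. The check also failed at the Mllt3 start named below, and held at the Mecom, Fgd5 and Nupr1 starts. The capitals before the upstream Mecom start are AAATCA, a core of the GFI1 motif, from 40 to 35 bases before the start, and 12.4% of all promoters hold it. The E-box CAGCTG, held by 13% of all promoters, was found at 1 start of Mllt3 and at that of Nupr1. The GATA motif AGATAA, the ETS motif CCGGAAG and the PAR family motif TTANGTAA had no match in the 9 windows, against 9.99%, 6.91% and 2.06% of all promoters. The printed Hlf and Fgd5 windows were 67.2% and 71.6% G or C with 26 and 31 CpG dinucleotides. The Mecom windows were 50.8% and 50.4% G or C with 14 and 8, beside a median of 6 CpG dinucleotides over all promoters. These matches describe letters and were set against no binding data.

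The values are TPM, a unit of transcript abundance that corrects for transcript length and sums to the same total in each library, so levels of different genes can be compared. TPM carries no read depth, so the depth is unknown and each SD given is the spread between libraries. The SE, intervals and p values of limma also draw on the spread of other genes of like level. The number of symbols above 0 ran from 13314 to 13810. The libraries differed in composition. Size factors by the median-of-ratios method were lowest in WT replicate 2, at 0.815, and highest in db/db replicate 3, at 1.23, and the ribosomal symbol Rn45s held 6.34% to 10.4% of the TPM. The stem cell gate was visible in the RNA. Kit ran from 164 to 350 TPM, Ly6a, which encodes Sca-1, from 308 to 463, and Slamf1, which encodes CD150, from 11.9 to 38.9. Cd48 was at 1.09 to 5.35 in WT against 1.63 to 21.4 in db/db. Il7r and Cd3e were at 0 in all 6 libraries, but markers of other blood cells were not all absent. Mpo ran from 21.9 to 347 TPM, and S100a8 from 67.8 in WT replicate 2 to 2127 in WT replicate 1. Lepr, the mutated gene, was at 2.34, 2.93 and 2.79 TPM in WT against 1.51, 2.44 and 2.04 in db/db, and a value per gene does not show which of its isoforms were made.

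All 8 genes were expressed in every library, and Hlf stood far above the rest. Over the 6 libraries the mean level was 292 TPM for Hlf, 47.8 for Mllt3, 43.3 for Mecom, 22.5 for Nupr1, 20.6 for Fgd5, 19.9 for Eya1, 14.5 for Prdm16 and 10.3 for Ctnnal1. Among the 11931 genes that averaged 1 TPM or more, Hlf ranked from 318th to 544th in the single libraries. Mecom ranked from 2328th to 3144th and Ctnnal1 from 6239th to 8427th. Hlf exceeded Mllt3 in all 6 libraries, and its lowest value, 169, was above the highest of Mllt3, 69.8. Mecom exceeded Nupr1 and Eya1 exceeded Prdm16 in all 6 as well. The order of the other neighbours was not fixed. Mllt3 was above Mecom in 3 of 6 libraries, Nupr1 above Fgd5 in 3, Fgd5 above Eya1 in 3 and Prdm16 above Ctnnal1 in 5. In bulk RNA, a level reflects both the share of cells that express a gene and the RNA per cell, and fewer cells of a type and less RNA per cell cannot be told apart.

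**Figure D1:**
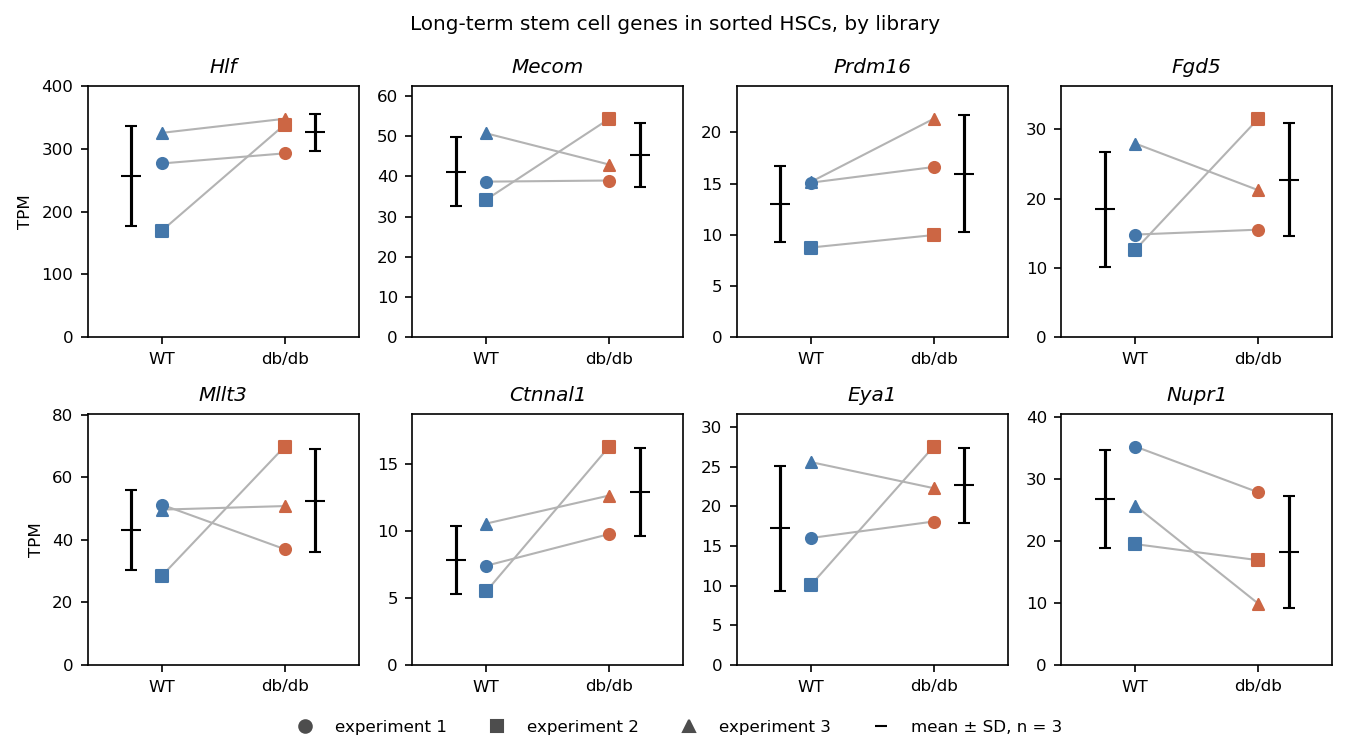
TPM of each of the 8 genes (1 panel each, with its own axis from 0) in WT and db/db libraries, with a symbol for each experiment, grey lines joining its libraries and black bars at the mean ± SD (n = 3). Hlf lies between 169 and 348 TPM, and for each gene the ranges of the groups overlap.

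No member of the group differed between db/db and WT HSCs by the test. None of the 8 passed an adjusted p of 0.05 in limma on log2(TPM + 1), in either direction, and none had an unadjusted p under 0.05. Over all 11931 genes tested, 0.0335% passed as higher in db/db and 0% as lower, which is 4 and 0 genes. At an unadjusted p under 0.05 the shares were 4.1% higher and 1.25% lower. For none of the 8 did the 3 libraries of a genotype all lie above those of the other, beside 7.85% of all genes with db/db above and 2.32% with db/db below. That count was 5 without WT replicate 3. It was 3 when db/db replicate 1 was left out and 1 when db/db replicate 2 was. Smaller groups lie apart more easily. The share of all genes was not computed with a library left out, so these counts have no background. The estimates were above 0 for 7 members and below 0 for Nupr1. The median log2 fold change was 0.30, and 0.18 over all genes, of which 68.1% were above 0. Relative to that shift, 6 members stood higher than the typical gene and 2 lower.

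**Figure D2:**
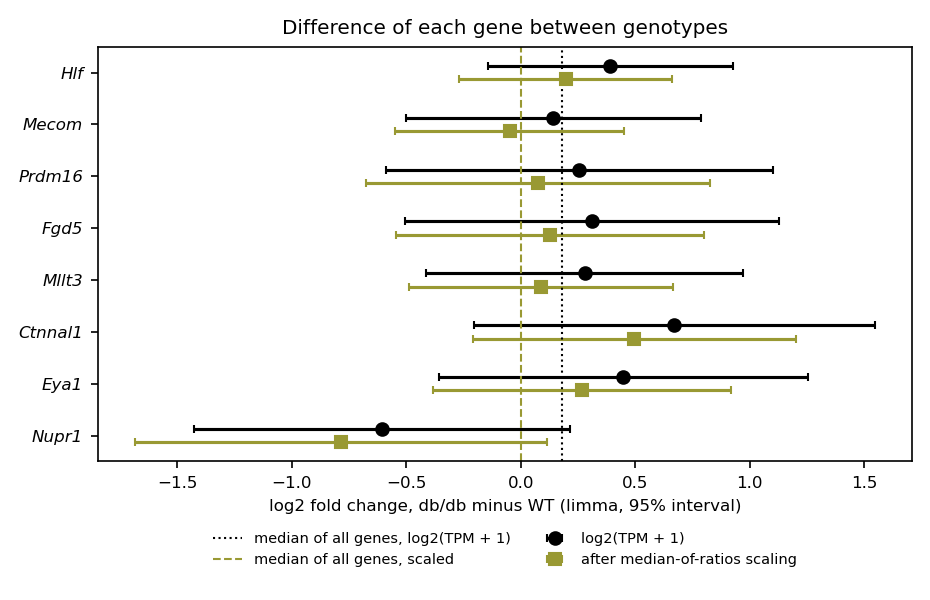
Log2 fold change, db/db minus WT, of each member with its 95% confidence interval from limma, on log2(TPM + 1) in black circles and after median-of-ratios scaling in olive squares, with the median of all genes on each scale as a dotted or dashed line. All intervals include 0, and Mecom changes sign between the scales.

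Among the transcription factors, Hlf measured 277, 169 and 325 TPM in WT replicates 1 to 3, against 293, 339 and 348 in db/db. WT replicate 2 was low and WT replicate 3 lay within the db/db range. The means were 257 ± 79.8 and 326 ± 29.5 TPM (SD, n = 3 each), with a log2 fold change of 0.39 (SE 0.26, 95% interval -0.14 to 0.93, limma adjusted p = 0.919). An exact two-sided permutation test of the log2(TPM + 1) values gave p = 0.2, where 3 against 3 libraries cannot go below 0.1. The db/db library was the higher of each experiment, by 0.08, 0.99 and 0.10 on the log2 scale. Without WT replicate 2 the log2 fold change was 0.12.

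Mecom measured 38.7, 34.2 and 50.7 TPM in WT against 39.0, 54.4 and 43.0 in db/db. Each genotype had 1 library above 50 and the groups overlapped over most of their range. The means were 41.2 ± 8.53 and 45.4 ± 7.98 TPM (SD, n = 3 each), and the log2 fold change was 0.14 (SE 0.31, 95% interval -0.50 to 0.79, limma adjusted p = 0.954). The sign differed between experiments, with differences of 0.01, 0.65 and -0.23. Leaving out WT replicate 2 gave 0.02, leaving out db/db replicate 2 gave 0.01, and the estimate was -0.05 after median-of-ratios scaling or quantile normalization. Median-of-ratios scaling moved the median of all genes from 0.18 to 0.00 as well, and relative to that median Mecom stood at -0.04 on TPM and at -0.05 after scaling.

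Prdm16 measured 15.1, 8.75 and 15.2 TPM in WT against 16.6, 9.97 and 21.3 in db/db. Both libraries of experiment 2 were low, and the overlap of the genotypes came from db/db replicate 2, which lay under WT replicates 1 and 3. Its log2 fold change was 0.26 (SE 0.41, 95% interval -0.59 to 1.10, limma adjusted p = 0.931). The differences within experiments were 0.13, 0.17 and 0.47, and without WT replicate 2 the log2 fold change was 0.01. The Prdm16 to Mecom ratio was 0.315 ± 0.0684 in WT and 0.369 ± 0.164 in db/db (SD, n = 3 each, exact permutation p = 0.8).

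Among the co-factors, Mllt3 measured 51.2, 28.4 and 49.6 TPM in WT against 37.0, 69.8 and 50.8 in db/db. The lowest and the highest value came from the WT and the db/db library of experiment 2. For Mllt3 the log2 fold change was 0.28 (SE 0.33, 95% interval -0.41 to 0.97, limma adjusted p = 0.926). The differences by experiment were -0.46, 1.27 and 0.03, so experiment 1 had the opposite sign. Without WT replicate 2 the estimate was 0.01 and without db/db replicate 2 it was 0.05.

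Eya1 measured 16.0, 10.0 and 25.6 TPM in WT against 18.1, 27.5 and 22.3 in db/db. WT replicate 2 was again the lowest and db/db replicate 2 the highest. Eya1 had a log2 fold change of 0.45 (SE 0.39, 95% interval -0.36 to 1.25, limma adjusted p = 0.920), with differences of 0.17, 1.37 and -0.19 in the experiments. Without WT replicate 2 it was 0.13.

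Among the genes used as HSC reporters, Fgd5 measured 14.8, 12.6 and 27.9 TPM in WT against 15.5, 31.5 and 21.2 in db/db. Both genotypes spanned about the same range. Its log2 fold change was 0.31 (SE 0.39, 95% interval -0.50 to 1.13, limma adjusted p = 0.926), and the differences were 0.06, 1.26 and -0.38. The estimate was 0.10 without WT replicate 2, 0.06 lacking db/db replicate 2, and 0.64 lacking WT replicate 3.

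Ctnnal1 had the highest estimate of the members. It measured 7.39, 5.48 and 10.5 TPM in WT against 9.75, 16.3 and 12.6 in db/db, and only WT replicate 3 and db/db replicate 1 overlapped. The means were 7.80 ± 2.55 and 12.9 ± 3.27 TPM (SD, n = 3 each), a ratio of 1.65. The log2 fold change was 0.67 (SE 0.42, 95% interval -0.21 to 1.55, limma adjusted p = 0.919; exact permutation p = 0.2), and the db/db library was the higher of every experiment, by 0.36, 1.41 and 0.24. After median-of-ratios scaling the groups no longer overlapped, with 8.09, 6.72 and 9.26 in WT against 10.7, 14.4 and 10.3 in db/db. On that scale 5.67% of all genes had every db/db library above every WT library, and 4.75% had every one below. The log2 fold change there was 0.50 (SE 0.32, limma adjusted p = 0.922).

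Nupr1 was the exception in sign. It measured 35.3, 19.5 and 25.8 TPM in WT against 27.9, 16.9 and 9.91 in db/db, so db/db replicates 2 and 3 lay below every WT library and db/db replicate 1 within the WT range. The means were 26.9 ± 7.94 and 18.2 ± 9.06 TPM (SD, n = 3 each), a ratio of 0.679. The log2 fold change was -0.61 (SE 0.40, 95% interval -1.43 to 0.22, limma adjusted p = 0.919; exact permutation p = 0.3). The db/db library was the lower of every experiment, by -0.33, -0.20 and -1.29. Scaled by median of ratios, Nupr1 stood at -0.79 (SE 0.41, 95% interval -1.69 to 0.11, limma adjusted p = 0.903), and without db/db replicate 3 on the TPM scale it was -0.25.

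The members differed most in experiment 2. The median difference of the 8 genes, db/db minus WT on the log2 scale, was 0.07 in experiment 1, 1.13 in experiment 2 and -0.08 in experiment 3, beside 0, 0.45 and 0.09 over all genes. In experiment 2, 7 of 8 members were higher in db/db, where 72.0% of all genes were. In experiments 1 and 3 it was 6 and 4 of 8, where 49.9% and 57.3% of all genes were. WT replicate 2 was the lowest library for 7 of the 8 genes and for 34.4% of all genes, and db/db replicate 2 the highest for 5 of the 8 and for 25.8%. After median-of-ratios scaling WT replicate 2 was lowest for 5 members and 18.6% of all genes, and the member medians by experiment were 0.07, 0.66 and -0.19. Without WT replicate 2 the median log2 fold change of the members was 0.06, and 0.08 over all genes. Hlf, Prdm16 and Ctnnal1 were higher in db/db in all 3 experiments, as were 22.7% of all genes, and Nupr1 was lower in all 3, as were 7.55%. After median-of-ratios scaling only Ctnnal1 was still higher in all 3, beside 14.1% of all genes, since Hlf then differed by -0.01 in experiment 3 and Prdm16 by -0.26 in experiment 2. Nupr1 was still lower in all 3, beside 13.8%.

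**Figure D3:**
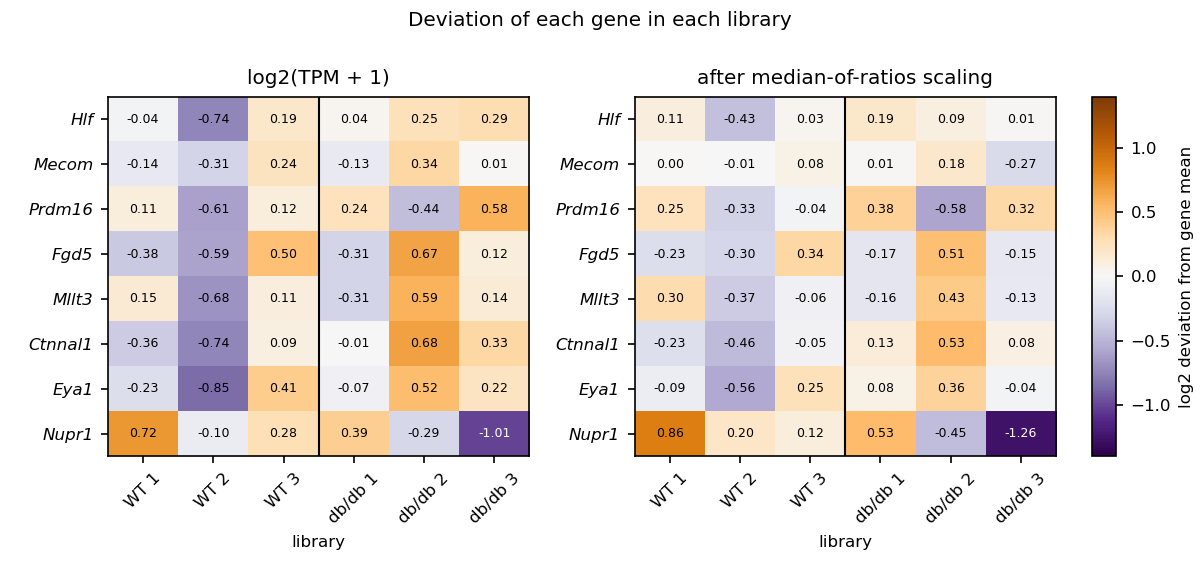
Deviation of each gene in each library from its own mean over the 6 libraries, in log2 units (colour and printed value), on log2(TPM + 1) at left and after median-of-ratios scaling at right. WT 2 is the lowest column for 7 genes at left, where Hlf deviates by -0.74 and Eya1 by -0.85, and Nupr1 runs against the others with 0.72 in WT 1 and -1.01 in db/db 3.

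Several members varied together from library to library. Mecom, Fgd5 and Eya1 put the 6 libraries in the same order, from WT replicate 2 through WT replicate 1, db/db replicate 1, db/db replicate 3 and WT replicate 3 to db/db replicate 2. The Pearson correlation over 6 libraries on log2(TPM + 1) was 0.991 for Mecom with Fgd5 (exact permutation p = 0.00139, adjusted over 28 pairs 0.0389), with Spearman rho 1 (exact permutation p = 0.00278, adjusted 0.0259). It was 0.933 for Mecom with Eya1 and 0.925 for Fgd5 with Eya1, both also with rho 1 and the same adjusted values. Of the 28 pairs of members, 21 had a positive r, the median r was 0.76, 6 passed by Pearson's r and 3 by Spearman's rho. With any 1 library left out none of the 28 passed by r. Over 5 libraries, though, the exact p cannot go below 0.00833, and a lone pair at that value could not pass the adjustment. Mecom with Fgd5 stayed at an r of 0.985 to 0.996 with any 1 library left out. Without WT replicate 2 the median r was 0.56 and 15 of the 28 were positive. The other 3 pairs that passed by r were Ctnnal1 with Eya1 (r = 0.931, rho = 0.943), Hlf with Ctnnal1 (r = 0.879, rho = 0.943) and Hlf with Eya1 (r = 0.943, rho = 0.829). Their adjusted exact permutation p values were 0.0389, 0.0389 and 0.0454 for r and 0.0667, 0.0667 and 0.163 for rho. Without the 2 libraries farthest from the median of the first gene, r was 0.957, 0.984 and 0.91 for the pairs among Mecom, Fgd5 and Eya1, and 0.770, 0.907 and 0.996 for the other 3.

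The correlations were lower once the libraries were rescaled. The median r of all tested genes with Mecom was 0.43 on TPM and 0.01 after median-of-ratios scaling. With Hlf the median r was 0.42 and 0.00. After that scaling the median r over the 28 pairs was 0.38 and none passed, with a smallest adjusted p of 0.544 by exact permutation. Mecom with Fgd5 then stood at 0.628 and Mecom with Eya1 at 0.420, while Fgd5 with Eya1 stood at 0.824, Ctnnal1 with Eya1 at 0.846 and Hlf with Eya1 at 0.802. Among 11930 other genes Fgd5 held place 2 in likeness to Mecom on TPM and place 859 after scaling. Eya1 held place 243 in likeness to Hlf, and 371 after scaling.

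Hlf and Mecom themselves were less alike. Their r was 0.767 (exact permutation p = 0.0458, adjusted 0.0917) and rho 0.829 (exact permutation p = 0.0583, adjusted 0.163). With the genotype means removed r was 0.751, and without the 2 libraries farthest from the median of Hlf it was 0.973. After median-of-ratios scaling r was 0.132 and after quantile normalization 0.03. The Hlf to Mecom ratio was 7.15, 4.95 and 6.41 in WT against 7.51, 6.23 and 8.10 in db/db, so WT replicate 2 was low in Hlf beyond its low Mecom. The mean ratios of 6.17 ± 1.12 and 7.28 ± 0.955 (SD, n = 3 each) were not told apart from the spread between libraries (exact permutation p = 0.3). No pair with Prdm16 passed. Its r with Mecom was 0.05 on TPM, 0.987 without the 2 libraries farthest from the median of Mecom and -0.64 after median-of-ratios scaling, so it rested on single libraries. With Hlf it was 0.631, and 0.440 after scaling. Nupr1 had a negative r with each of the other 7 on TPM, down to -0.459 with Ctnnal1, and no pair with it passed. After scaling 4 of those 7 were positive, up to 0.484 with Mecom.

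Among 7585 genes that averaged 10 TPM or more, the ones most like Hlf over the 6 libraries were Mcts2 (r = 0.999), Inadl (r = 0.999) and Adi1 (r = 0.998). Mcts2 is a near copy of Mcts1, so its value depends on how shared reads were divided. Inadl encodes a scaffold protein of cell polarity complexes and Adi1 an enzyme of methionine salvage. After median-of-ratios scaling these stood at 0.926, 0.996 and 0.936. Among those most like Mecom were Slc25a24 (r = 0.987), a mitochondrial carrier, and Gtf2a1 (r = 0.984), a subunit of the general transcription factor TFIIA. These stood at 0.640 and 0.886 after scaling. In all, 178 genes had an r above 0.95 with Hlf and 63 with Mecom, so such values are not rare over these 6 libraries.

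Each member was also set against the rest of its own gene family, where it was often the leading form. Hlf supplied 92.6% of the summed TPM of the PAR zipper genes and their antagonist Nfil3 in WT and 94.6% in db/db, with single libraries from 92.1% to 96.2%. Its relatives Tef, Nfil3 and Dbp averaged 7.97, 6.07 and 5.92 TPM. Mecom was the highest of the PRDM genes at 43.3 TPM. Prdm4 followed at 19.4, Prdm2 at 16.2 and Prdm16 at 14.5, and Prdm6, Prdm12 and Prdm13 were listed at 0 throughout. Fgd5, at 20.6 TPM, exceeded Fgd2 at 9.10 and the other FGD exchange factors. Mllt3 exceeded its paralogue Mllt1, at 47.8 against 26.3 TPM. The order was the other way for Eya1 and Ctnnal1. Eya2 averaged 102 TPM against 19.9 for Eya1, and the true alpha-catenin Ctnna1 35.9 against 10.3 for Ctnnal1.

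**Figure D4:**
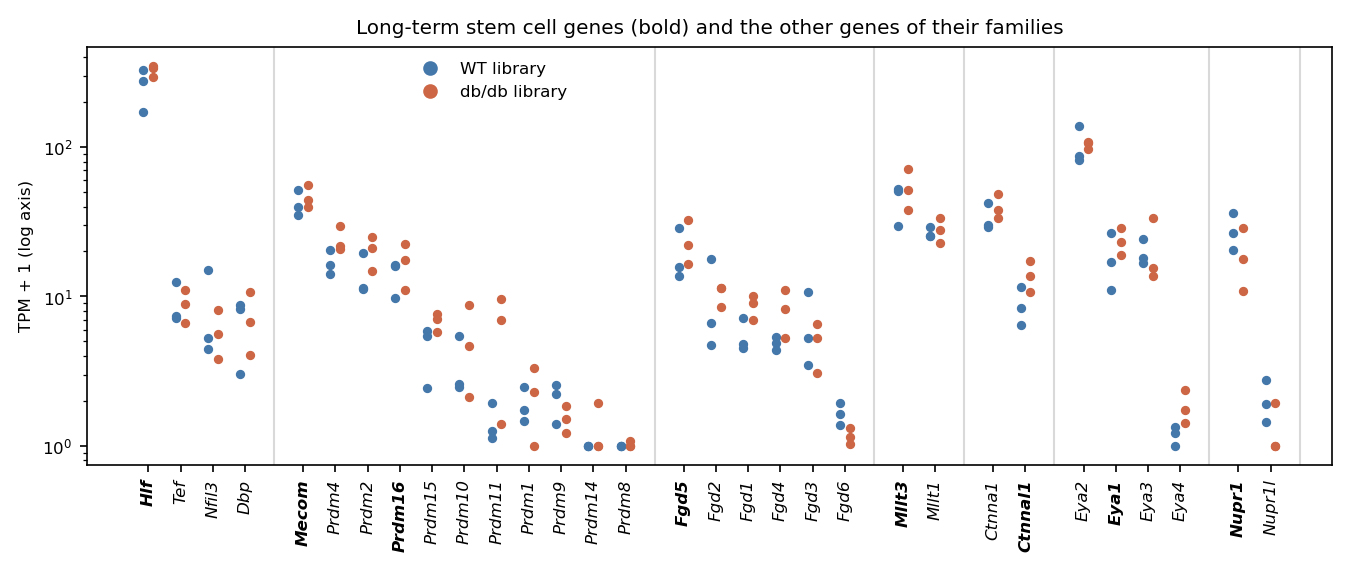
TPM + 1 on a log axis of each member (bold) and of the relatives in its gene family, with 1 point per library, blue for WT and red for db/db; genes at 0 in all libraries, and 1 other relative, are left out. Hlf, with a mean of 292 TPM, exceeds its relatives in every library, whereas Eya2, with a mean of 102, exceeds Eya1, with 19.9.

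Of 29 relatives in the table, 18 were expressed enough to be tested and none passed. Their median log2 fold change was 0.19, beside 0.18 over all genes, and 9 lay above and 9 below that median. It was 0.04 after median-of-ratios scaling, and ran from 0.08 to 0.39 with 1 library left out, the lowest lacking db/db replicate 3 and the highest lacking WT replicate 3. The smallest p belonged to Prdm11, a low-level PR-domain gene, with 0.26, 0.93 and 0.13 TPM in WT against 5.95, 8.64 and 0.41 in db/db. Its db/db replicate 3 lay within the WT range, and the log2 fold change was 1.70 (SE 0.68, limma adjusted p = 0.875). Fgd1 stood at 0.68 and Eya2, the most abundant relative, at 0.05.

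No partner of the members passed the same test. The list held 33 genes that encode binding partners or substrates of the members, such as the Dot1l complex of Mllt3 and the GTPase of Fgd5. The 27 tested had a median log2 fold change of 0.20, which was 0.01 after median-of-ratios scaling and ran from 0.07 without WT replicate 2 to 0.38 without WT replicate 3. Dot1l itself measured 6.83, 10.2 and 10.4 TPM in WT against 17.95, 19.5 and 11.6 in db/db, at a log2 fold change of 0.76 (limma adjusted p = 0.919). It alone of the 27 had groups that did not overlap, beside 7.85% of all genes with db/db above. Msl1, Suv39h1 and Cdc42 stood at 0.62, 0.58 and 0.43, and Cdc42 was the most abundant partner at 299 TPM.

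Other transcription factors of HSCs formed a list of 24. All were tested and none passed, 14 stood above the all-gene median and 10 below it, and their median log2 fold change was 0.28. Hoxa7, a homeobox factor, had the smallest p, with 2.37, 5.85 and 2.43 TPM in WT against 6.69, 8.39 and 9.89 in db/db (log2 fold change 1.10, SE 0.48, limma adjusted p = 0.899). Erg, an ETS factor of HSCs and endothelium, was low in WT replicate 2, at 20.6 TPM beside 51.0 and 69.6, and at 71.5, 79.0 and 56.2 in db/db. Its log2 fold change was 0.69, that of the chromatin protein Hmga2 0.81 and that of Lmo2, the most abundant factor, 0.22. Of 28 other HSC signature genes none passed, 14 lay above and 14 below the all-gene median, and their median was 0.18. Without WT replicate 2 the medians of these lists were 0.10 and 0.06, without WT replicate 3 they were 0.48 and 0.36, and after median-of-ratios scaling 0.09 and -0.01. Slamf1, whose product was used in the sort, measured 24.0, 11.9 and 17.6 TPM in WT against 29.0, 38.9 and 24.96 in db/db (0.79, SE 0.36, limma adjusted p = 0.919). Tek, the angiopoietin receptor, stood at 0.66, Tgm2 at 0.39 and Ifitm1, the most abundant, at 0.27.

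Genes of progenitors, the cells that HSCs give rise to, had a median log2 fold change of 0.51. None of the 19 tested passed, and 17 stood above the all-gene median and 2 below it. That median was 0.78 when WT replicate 1 was left out, 0.31 when db/db replicate 2 was, 0.40 when WT replicate 3 was, and 0.35 after median-of-ratios scaling. Whether this list and the members differ was not tested. Flt3, a receptor of multipotent progenitors that long-term HSCs carry little of, measured 8.62, 6.18 and 12.7 TPM in WT against 18.4, 29.6 and 21.3 in db/db (log2 fold change 1.27, SE 0.40, limma adjusted p = 0.588). Cd53, a leukocyte tetraspanin, stood at 1.80 (limma adjusted p = 0.240) and Csf2rb, the shared chain of the IL-3 and GM-CSF receptors, at 1.08 (limma adjusted p = 0.607). Cd27, the most abundant of the list, stood at 0.20. The Hlf to Flt3 ratio, chosen after the values were seen, was 32.1, 27.4 and 25.6 in WT against 15.9, 11.4 and 16.4 in db/db. The groups did not overlap, and the exact permutation p of 0.1 is the smallest that 3 against 3 libraries can give.

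**Figure D5:**
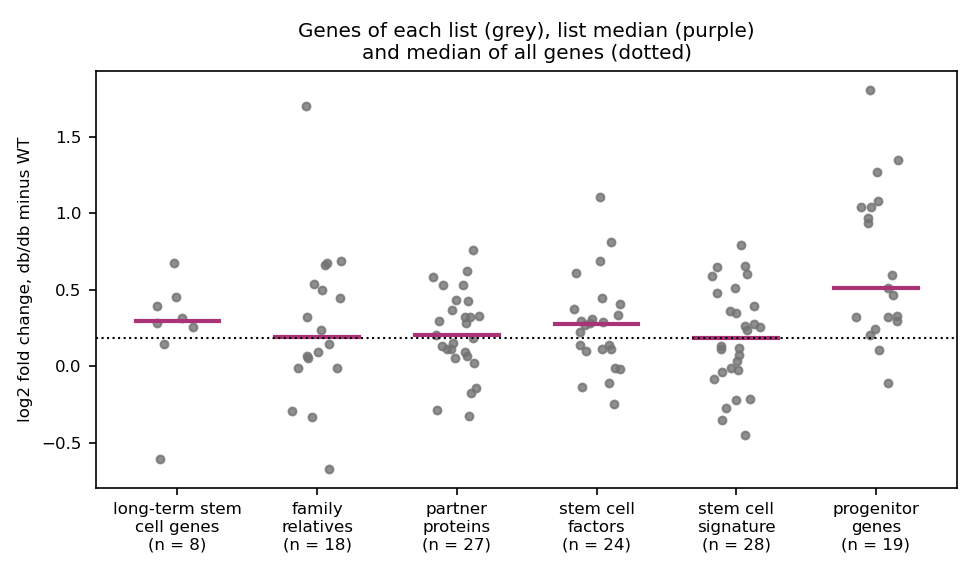
Log2 fold change, db/db minus WT, of every tested gene (grey points, spread sideways for visibility) in the member list and in the lists of family relatives, partners, other HSC factors, HSC signature and progenitor genes, with list medians in purple and the median of all genes dotted. The medians run from 0.18 in the signature list to 0.51 in the progenitor list, and the members stand at 0.30.

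Markers of other blood cells differed between the libraries as well, and on TPM the summed levels of the progenitor, erythroid, megakaryocyte and mast cell lists were higher in each db/db library than in any WT library. After median-of-ratios scaling this held for the mast cell list alone, and the progenitor sums then ran from 753 to 1008 in WT against 804 to 1296 in db/db. Over 22 progenitor markers the summed level was 725 to 921 TPM in WT and 987 to 1466 in db/db. Over 14 granulocyte markers it was 4587, 374 and 291 TPM in WT against 3915, 2086 and 1505 in db/db, so WT replicate 1 was above every db/db library, and 9 of 13 tested had an unadjusted p under 0.05 and a higher estimate in db/db, as had 4.1% of all genes. Mpo and Elane are in both lists. Over 10 erythroid markers it was 633 to 846 against 986 to 2029, and over 8 megakaryocyte markers 1097 to 1351 against 1411 to 1641. Over 8 macrophage markers it was 24.9 to 80.7 against 42.5 to 83.5, and over 9 endothelial and stromal markers 26.2 to 46.9 against 31.7 to 48.4. Mast cell and basophil markers summed to 0.67 to 2.93 TPM against 5.01 to 14.95, B-cell markers to 33.1 to 61.2 against 28.8 to 60.7, and T and NK markers to 4.44 to 12.7 against 7.04 to 8.65. Ms4a1, Pax5, Ebf1, Cd3e and Cd3g were at 0 in all libraries. The part of these markers, and of the scale of WT replicate 2, in the values of the 8 genes was not tested.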

How the data were processed

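Bulk RNA sequencing was made from sorted HSCs, 3 libraries per genotype. The deposited values are TPM per gene symbol, made by the authors with RSEM and Bowtie2 on mm9, per the submitters' processing notes; versions and annotation are not given in the sources used here. RSEM divides shared reads by estimate, so near copies are uncertain. TPM keeps no depth.

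The 11931 genes that averaged 1 TPM or more were tested as log2(TPM + 1) with limma 3.58.1 in R 4.3.3, with genotype as the only term, a trend in the moderation, two-sided tests and Benjamini-Hochberg adjustment. Adding 1 understates changes of low genes. The script was tested on simulated data. Correlations used exact permutation over 720 orderings of the 6 libraries. Replicates are separate experiments per the labels, which do not give the mice per library, so p-values rest on the spread between these libraries. In limma that spread is moderated towards genes of like level, with 17.7 prior degrees of freedom beside 4 residual.

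The labels give each experiment number to 1 library of each genotype, which pairs them. Within experiments, the libraries' deviations from their group means had correlations of 0.04, 0.01 and 0.16, and between experiments of -0.12 to 0.08. The fit with the experiment as a replicate block called 4 genes higher and 2 lower in db/db, and no member.

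The members, the lists of relatives, partners and markers, and the tests were chosen with earlier results of these data known. The genes named were the members, up to 3 of smallest p and the most abundant of each of 5 lists, the 3 genes of highest r with Hlf and with Mecom, and the sorting markers. Some genes that this rule names are not reported here, though counts over lists include them. The alternatives tried were adding 0.1 or 0.5 instead of 1, keeping all genes or those that averaged 5 TPM, median-of-ratios scaling, quantile normalization, other moderation, array weights, the block and each library left out. Removal of 3 rRNA-like symbols, scaling joined with the block, and all pairs, marker sums and differences by experiment after scaling were added after seeing the data.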

Additional observations from a re-analysis of the deposited data

How the results depend on the processing

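No member passed under any of the 18 alternatives run for each. The unadjusted limma p of Nupr1 was 0.016 with array weights and 0.025 with median-of-ratios scaling joined with the replicate block. It was 0.033 without db/db replicate 1, and that of Hlf was 0.043 without WT replicate 3. The share of all genes under 0.05 in those fits was not computed. The sign held in all 18 for each member except Mecom, whose log2 fold change was -0.048 after median-of-ratios scaling, with or without the replicate block, and -0.049 after quantile normalization. The replicate block changed no call of a member. Median-of-ratios scaling moved the median of all genes from 0.18 to 0.00, and relative to it Mecom stood at -0.039 before and -0.051 after. The members whose groups did not overlap numbered 1 after either scaling and 0 to 5 with 1 library left out. After median-of-ratios scaling 5.67% of all genes had db/db above and 4.75% had db/db below. That share was not computed after quantile normalization or with a library left out. Over all genes, the number higher in db/db, 4 as reported, was 0 with no filter, 0 without the trend, 1 with median-of-ratios scaling, 1 with quantile normalization, 1 with a robust prior and 12 with array weights, and 0 to 15 with 1 library left out, the highest lacking WT replicate 1 and the lowest lacking db/db replicate 2. The number lower, 0 as reported, was 1 at a mean of at least 5 TPM, 2 with the replicate block, 4 with array weights and 0 to 1 with 1 library left out. The lowest adjusted p of a member under any alternative was 0.267, for Nupr1, and the range of its log2 fold change was -0.96 to -0.25. That of Hlf was 0.12 to 0.59 and that of Ctnnal1 0.47 to 0.89. With 3 libraries per genotype and unknown depth, differences of the size estimated here could not be told from 0.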

Other observations

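Ratios between genes of the same library remove a scale that both share. Of 9 such ratios, chosen after the values were seen, 4 had groups that did not overlap, each at an exact two-sided permutation p of 0.1, the smallest that 3 against 3 libraries allow. Ctnnal1 and Hlf each recur among the 4. The share of other gene ratios with groups apart was not computed, so the count cannot be read as an excess. Eya1 over Eya2 was 0.187, 0.123 and 0.185 in WT against 0.187, 0.262 and 0.209 in db/db, with the nearest libraries of the groups almost equal. Ctnnal1 over the alpha-catenin gene Ctnna1 averaged 0.234 ± 0.0344 in WT and 0.336 ± 0.0925 in db/db (SD, n = 3 each). Ctnnal1 over Hlf averaged 0.0305 ± 0.00325 and 0.0392 ± 0.00780. Hlf over Flt3 averaged 28.4 ± 3.34 and 14.6 ± 2.71. Nupr1 over Mecom, at 0.663 ± 0.217 and 0.419 ± 0.260, overlapped between the groups.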
